A study of Mus with 7 samples.

Results

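The IL-10, SOCS and STAT3 feedback genes described here are Il10, Il10ra, Il10rb, Stat3, Socs3, Socs1 and Cish, 7 of the 31053 genes counted in fetal liver-derived macrophages (FLMs). They were taken by symbol, and each was read in the 11640 cells kept of 31151 barcodes in 7 single-cell libraries. FLMs are self-renewing mouse macrophages grown out of C57BL/6J fetal liver with GM-CSF. All conditions, the control included, were wild type and held 30 ng/mL GM-CSF, a cytokine that itself signals through JAK2 and STAT5. Con cells were taken from 10% FBS before any treatment. The other conditions spent 24 h in 0.25% FBS, either with 8.3 µM BSA (Veh) or with 25 µM docosahexaenoic acid (DHA), an omega-3 fatty acid, on 8.3 µM BSA. They were collected without LPS (Veh.LPS.0, DHA.LPS.0) or after the medium was changed to one with 20 ng/mL LPS, the bacterial ligand of TLR4, for 1 h (Veh.LPS.1, DHA.LPS.1) or 4 h (Veh.LPS.4, DHA.LPS.4). The study asked how DHA changes the sequential response of single macrophages to LPS. Each condition was sequenced as 1 library. No difference therefore has a replicate check, no test between conditions was run, and every interval is a 95% interval of counting error only.

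IL-10 binds a receptor built of IL-10RA, the ligand-specific chain that carries JAK1, and IL-10RB, a chain shared with other cytokines that carries TYK2. The kinases phosphorylate STAT3, which enters the nucleus and turns on genes that hold back inflammatory transcription in macrophages. The SOCS proteins are feedback inhibitors of such receptors: SOCS3 blocks gp130 receptors, those of IL-6, LIF and oncostatin M, and the G-CSF receptor, SOCS1 blocks JAKs after interferons, and CIS, the product of Cish, acts on receptors that use STAT5, GM-CSF among their ligands.

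Levels are counts of unique molecular identifiers (UMIs), 1 per captured molecule, summed over the kept cells of a library and divided by the library's total and scaled as usual to CPM (counts for each 10 to the power of 6). The totals ran from 22045775 UMIs in DHA.LPS.4 to 125716982 in Con, and the median cell held 29369 to 56239 UMIs. Shares of cells with a UMI are given after each cell was thinned to 20000 UMIs, which no kept cell was too shallow for. All 11640 cells held at least 3 of 9 macrophage markers and 0 held 3 markers of another cell type, so there was no cell type lacking these genes in which to read the background from free RNA. A limit of under 20% mitochondrial UMIs, among others, kept 12.1% to 18.5% of the barcodes of the DHA libraries and 40.6% to 62.5% of the others. The part of this difference in the comparisons of DHA with Veh was not tested beyond the values given for all barcodes. UMIs of 1 cell are not independent, and the kit reads the 3' end of transcripts, so isoforms of Stat3 were not told apart.

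Il10 (ENSMUSG00000016529, chr1:131019845-131024970, GRCm38.p6), the ligand, was found only in libraries with LPS, and in few cells. No Il10 UMI was counted in Con, Veh.LPS.0 or DHA.LPS.0, which allows up to 0.0239, 0.0304 and 0.0856 CPM, and shares of up to 0.103%, 0.121% and 0.430% of cells with a UMI. After 1 h of LPS there were 9 UMIs in 9 of 3073 Veh cells (0.0952 CPM, interval 0.0435 to 0.181) and 6 UMIs in 6 of 795 DHA cells (0.189 CPM, 0.0692 to 0.410). At 4 h there were 27 UMIs in 20 of 993 Veh cells (0.461 CPM, 0.304 to 0.670) and 8 UMIs in 5 of 692 DHA cells (0.363 CPM, 0.157 to 0.715). The 4 libraries with LPS thus held all 50 Il10 UMIs, in 40 cells. A count of 0 allows 3 counts in a library. Against that level in Veh.LPS.0, the counted Il10 was 3.13-fold higher in Veh.LPS.1 and 15.2-fold higher in Veh.LPS.4. With DHA these values were 2.20-fold and 4.24-fold against DHA.LPS.0. They leave out the counting error of the library with LPS. The interval of DHA.LPS.1 starts at 0.0692 CPM, below the 0.0856 CPM allowed in DHA.LPS.0, so a rise at 1 h in DHA was not shown. Between 1 and 4 h in Veh the ratio of CPM was 4.84 (2.21 to 11.7), and in DHA it was 1.92 (0.585 to 6.73). The DHA/Veh ratio was 1.98 (0.580 to 6.23) at 1 h and 0.788 (0.309 to 1.78) at 4 h, so no difference between DHA and Veh was detectable at this depth.

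Il10ra (ENSMUSG00000032089, chr9:45253837-45269149), the ligand-specific chain, was higher in every library with LPS than in any without. Its level was 3.28 CPM in Con (2.97 to 3.61). In Veh it was 5.47 CPM before LPS (5.02 to 5.95), 22.4 CPM after 1 h (21.4 to 23.4) and 18.6 CPM after 4 h (17.5 to 19.7). With DHA the values were 3.77 CPM (3.15 to 4.47), 16.6 CPM (15.2 to 18.1) and 18.0 CPM (16.3 to 19.9). The intervals of the 2 libraries at 4 h overlapped, those of DHA.LPS.1 and DHA.LPS.4 too, and Veh.LPS.1 lay above all of them, an order that TMM factors, a scaling that gives less weight to a few very abundant genes, turned for Veh at 4 h (log2 ratio over 1 h of 0.08 in place of -0.27). At equal depth a UMI was found in 6.36% to 10.6% of cells in the libraries without LPS, in 34.0% of Veh.LPS.1 cells (32.4 to 35.7) and in 26.0% to 28.5% of cells in the other libraries with LPS. LPS raised Il10ra 4.10-fold (3.72 to 4.51) at 1 h and 3.40-fold (3.07 to 3.78) at 4 h in Veh, and 4.40-fold (3.63 to 5.37) and 4.78-fold (3.91 to 5.86) in DHA.

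Il10rb (ENSMUSG00000022969, chr16:91406157-91425834), the shared chain, stayed between 26.3 and 27.5 CPM in Con and in both arms at 0 and 1 h. The highest 2 levels were those at 4 h, where Veh held 36.1 CPM (34.6 to 37.6) and DHA 43.0 CPM (40.3 to 45.8). From 0 to 4 h the ratio was 1.57 (1.43 to 1.71) in DHA, past the 1.5-fold limit used below, and 1.35 (1.28 to 1.43) in Veh, within it. In DHA it was within the limit with SCTransform, at a log2 ratio of 0.46, and in cells low in proliferation genes, at 0.47, against 0.65 as reported. Scaling decided the call for Veh, where the log2 ratio was 0.43 with the library total and 0.87 with TMM factors. Equal-depth shares ran from 38.5% in Con to 47.4% in Veh.LPS.4 and 54.3% in DHA.LPS.4.

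Stat3 (ENSMUSG00000004040, chr11:100886806-100939594), the transcription factor, was the member with the flattest profile. It had 23.4 CPM in Con (22.5 to 24.2). In Veh it had 29.6 CPM without LPS (28.5 to 30.7), 33.7 CPM at 1 h (32.5 to 34.9) and 28.1 CPM at 4 h (26.8 to 29.5). The DHA libraries held 24.6 CPM (23.0 to 26.3), 33.9 CPM (31.9 to 35.9) and 27.0 CPM (24.9 to 29.3). On the CPM scale both libraries at 1 h were above all others, but with TMM factors the log2 ratio of 4 h over 1 h in Veh was 0.08 in place of -0.26, and the 2 at 4 h had overlapping intervals. The largest LPS ratio was 1.38 (1.26 to 1.51), in DHA at 1 h, against 1.14 (1.08 to 1.20) in Veh, and at 4 h the ratio was 1.10 (0.988 to 1.22) in DHA and 0.951 (0.895 to 1.01) in Veh. The sign at 4 h in Veh depended on scaling, with a log2 ratio of -0.07 with the total and 0.36 with TMM factors. These are mRNA levels and say nothing of the phosphorylation that makes STAT3 active.

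Socs3 (ENSMUSG00000053113, chr11:117966079-117970336), the gp130 inhibitor, had the largest response of the members that could be given a ratio. Without LPS, Con held 18.0 CPM (17.3 to 18.8), Veh 14.7 CPM (13.9 to 15.5) and DHA 11.0 CPM (9.95 to 12.2). After 1 h, Veh held 164 CPM (161 to 167) and DHA 135 CPM (131 to 139). At 4 h the levels were 103 CPM (101 to 106) and 111 CPM (106 to 115). Each of the 4 libraries with LPS was thus above each of the 3 without it, with no overlap of the intervals. The ratio over 0 h was 11.2 (10.6 to 11.8) at 1 h and 7.03 (6.64 to 7.45) at 4 h in Veh, and 12.2 (11.0 to 13.6) and 10.0 (9.01 to 11.2) in DHA. From 1 to 4 h it fell in Veh, with a ratio of 0.630 (0.611 to 0.649), but with TMM factors this fall was 0.32 on the log2 scale, in place of 0.67, and within the limit, as it was with size factors and SCTransform. In DHA the ratio from 1 to 4 h was 0.821 (0.781 to 0.863).

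Socs1 (ENSMUSG00000038037, chr16:10783808-10785536), the interferon feedback gene, was counted in few cells, and its share of cells with a UMI stayed just under the 25% limit at its highest, 248 of 993 cells (25.0%) of Veh.LPS.4. It is therefore given by values alone. Con had 5.0 CPM (4.61 to 5.40). In Veh the level was 3.18 CPM before LPS (2.84 to 3.55), 3.65 CPM at 1 h (3.27 to 4.06) and 6.21 CPM at 4 h (5.59 to 6.88). DHA gave 3.43 CPM (2.84 to 4.10), 5.15 CPM (4.40 to 6.01) and 3.90 CPM (3.12 to 4.82) at these hours. The highest level in Veh was at 4 h and in DHA at 1 h. The ratio of 4 h over 0 h was 1.95 (1.68 to 2.28) in Veh and 1.14 (0.853 to 1.51) in DHA. At equal depth, 11.5% of the cells at 4 h held a UMI in Veh (9.56 to 13.6) and 6.50% in DHA (4.78 to 8.60), and in 6.81% to 9.53% of cells elsewhere.

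Cish (ENSMUSG00000032578, chr9:107296659-107302784), the STAT5 feedback gene, went up and then down. It had 69.9 CPM in Con (68.4 to 71.4). The Veh libraries held 54.4 CPM at 0 h (52.9 to 55.8), 82.0 CPM at 1 h (80.2 to 83.9) and 34.3 CPM at 4 h (32.9 to 35.9). In DHA there were 44.1 CPM (41.9 to 46.3), 64.3 CPM (61.6 to 67.2) and 23.7 CPM (21.7 to 25.8). DHA was below Veh at each hour with no overlap of the intervals, and on the CPM scale both libraries at 4 h were below all others. At 1 h the ratio over 0 h was 1.51 (1.46 to 1.56) in Veh, just past the limit, and 1.46 (1.36 to 1.56) in DHA, just within it, and with TMM factors both were past it. In Veh the call was lost in 5 other settings, at log2 ratios from 0.50 with SCTransform to 0.57 with all barcodes, against 0.59 as reported. At 4 h it was 0.632 (0.600 to 0.665) in Veh and 0.537 (0.485 to 0.594) in DHA. The call in Veh was lost with TMM factors, which gave -0.23 in place of -0.66 on the log2 scale, while that in DHA was kept at -0.60 with TMM factors and lost at -0.55 with size factors. The fall from 1 to 4 h was past the limit with either scaling, with ratios of 0.419 (0.398 to 0.440) in Veh and 0.368 (0.334 to 0.406) in DHA.

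**Figure D1:**
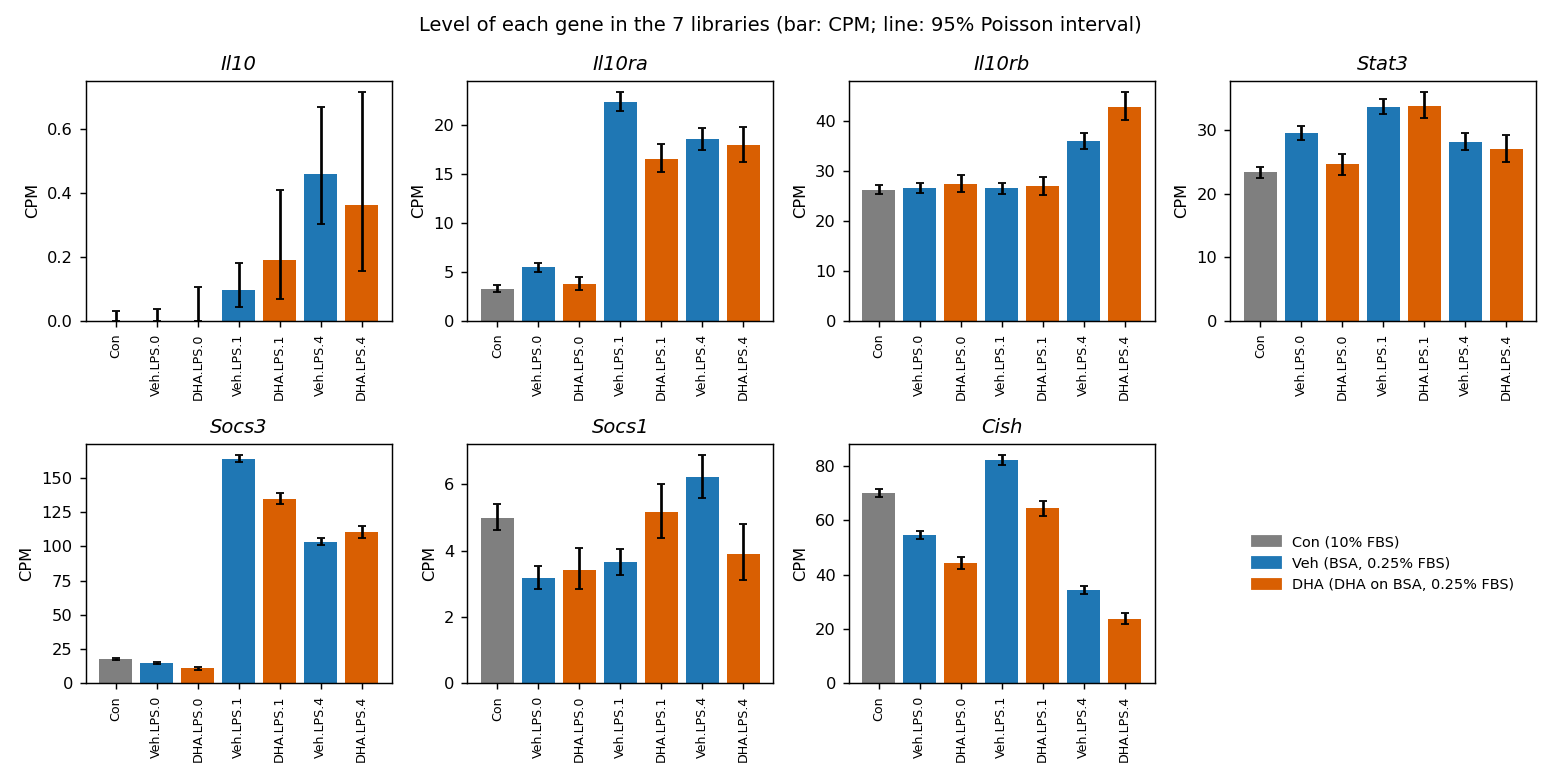
Level of each gene in the 7 libraries, in CPM on the vertical axes, each with its own scale from 0, with 95% Poisson intervals of the summed UMIs. Grey is Con, blue Veh and orange DHA. Il10 was at 0 in the 3 libraries without LPS, Socs3 rose from at most 18.0 CPM to at least 103 CPM with LPS, and Cish was lowest in each arm at 4 h.

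The members were set against all genes by 2 limits, those with which the study compared DHA with Veh at 1 and 4 h, here applied to every comparison: a ratio of CPM beyond 1.5-fold either way and a UMI in at least 25% of the kept cells of either library before thinning. Genes passing the share limit are called measured, and since a gene can pass it only in the library where it is high, the counts are descriptions. Over all measured genes the median log2 ratio after 4 h of LPS was -0.36 in Veh and -0.29 in DHA, and TMM factors moved these to 0.07 and 0.01. From 1 to 4 h they were -0.25 in Veh and -0.18 in DHA, and 0.09 and 0.01 with TMM factors. Within the first hour the medians were -0.10 and -0.12, and TMM factors gave -0.02 and -0.01. Members are read beside these medians, since a scaling that moves them moves each member by the same amount.

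After 1 h of LPS in Veh, Socs3, Cish and Il10ra rose past the limits and Il10rb and Stat3 did not, 3 higher and 0 lower of 5 measured members, where 4.15% of 8089 genes were higher and 4.24% lower. With TMM factors these members stayed past the limits, though Cish did not in 5 other settings, among 5.02% of genes higher and 3.16% lower. In DHA, Socs3 and Il10ra were higher and 0 of 5 lower, against 4.66% and 4.97% of 8474 genes, and TMM factors added Cish, with 5.92% and 3.34%. At 4 h in Veh, Socs3 and Il10ra were higher and Cish lower, against 10.2% higher and 38.3% lower of 8385 genes, so that a lower gene was common at that hour. TMM factors made this 3 higher members, with Il10rb, and 0 lower, where 21.6% of genes were higher and 21.1% lower. At 4 h in DHA, Socs3, Il10ra and Il10rb were higher and Cish lower, against 9.64% and 33.6% of 8477 genes, and the members were the same with TMM factors, with 18.3% and 21.0% of genes. Il10ra was in 18.7% of Veh.LPS.0 and 16.2% of DHA.LPS.0 cells before thinning. It passed the share limit in these comparisons only through the libraries with LPS, where it had to be high. Its part in the counts is therefore a description.

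From 1 to 4 h in Veh, 0 members were higher and Socs3 and Cish lower of 5 measured, where 7.98% of 8010 genes were higher and 29.3% lower. With TMM factors Il10rb was higher and Cish alone lower, against 16.7% and 16.2%. In DHA, Il10rb was higher and Cish lower over the same interval, against 6.97% and 23.3% of 7847 genes, and TMM factors left these members as they were, with 11.3% and 15.7%. The call of Il10rb was lost with all barcodes and in cells low in proliferation genes, at log2 ratios of 0.56 and 0.53. The move from 10% FBS to 0.25% FBS with BSA, Veh.LPS.0 over Con, put 0 of 4 measured members past the limits in either direction, where 9.31% of 8252 genes were higher and 7.76% lower. Below the share limit in that comparison, Il10ra had a ratio of 1.67 (1.46 to 1.90) and Socs1 one of 0.636 (0.554 to 0.730). Beside these values, the summed level of 8 proliferation genes in Con was 3126 CPM. Along the hours of LPS it was 2517, 2282 and 718 CPM in Veh, and 1990, 1588 and 994 CPM in DHA. In cells low in these genes, Socs3 was lower in Veh.LPS.0 than in Con by 0.79 on the log2 scale, past the limit, against 0.30 in all kept cells, while Il10ra was higher by 0.25, against 0.74.

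**Figure D2:**
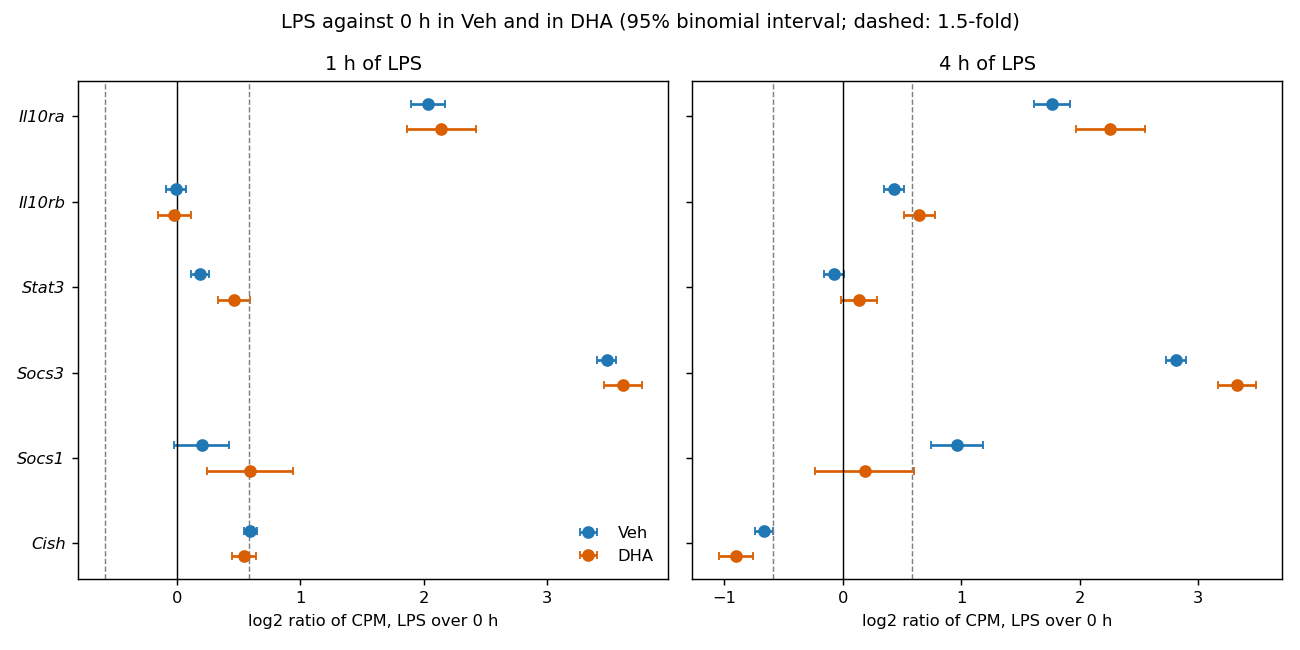
Log2 ratio of CPM after 1 h (left) and 4 h (right) of LPS over 0 h, in Veh (blue) and DHA (orange), with 95% binomial intervals; dashed lines mark 1.5-fold. Il10, at 0 UMIs before LPS, has no ratio. Socs3 and Il10ra lie far to the right at both hours, and Cish changes side between 1 and 4 h.

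The comparison of DHA with Veh at the same hour put 0 members past the limits at any hour with the library total. At 0 h, 0 of 4 measured members were past them, with 1.08% of 8434 genes higher and 0.949% lower. At 1 h it was 0 of 5, with 1.33% of 7794 genes higher and 1.73% lower, and at 4 h 0 of 5, with 2.22% of 7672 genes higher and 2.42% lower. With TMM factors Cish was lower at 4 h, the 1 member past the limits of any of the 3 hours, among 1.25% of genes higher and 3.42% lower. Within the limits, several ratios still lay beyond counting error.

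Cish was lower with DHA at each hour, with ratios of 0.811 (0.766 to 0.858) at 0 h, 0.784 (0.746 to 0.823) at 1 h and 0.690 (0.625 to 0.760) at 4 h. At 4 h it crossed the limit with TMM factors, size factors and SCTransform, where the log2 ratio was -0.66, -0.61 and -0.61 against -0.54 with the total. In cells of 20000 to 40000 UMIs, a range added after the data were seen to match depth, it was -0.24 at 4 h, -0.38 at 1 h and -0.32 at 0 h. At 4 h this range held 121 of 993 Veh cells and 587 of 692 DHA cells, and no interval was computed for it. With all barcodes kept, the log2 ratios were -0.52, -0.68 and -0.90 in the order of the hours. The log2 ratio of Cish was thus negative in each of these settings. Its size at 4 h differed between them, and whether by more than counting error was not tested.

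Socs3 was lower with DHA at 0 h, with a ratio of 0.751 (0.669 to 0.840), and at 1 h, with 0.821 (0.794 to 0.850). At 4 h the ratio was 1.07 (1.02 to 1.12), a log2 ratio of 0.10 that turned to -0.02 with TMM factors, -0.16 with SCTransform, -0.32 with all barcodes and -0.01 in cells of 20000 to 40000 UMIs. Il10ra had ratios of 0.689 (0.565 to 0.835), 0.741 (0.672 to 0.816) and 0.968 (0.861 to 1.09) at the same hours, closest to 1 at 4 h. With all barcodes its log2 ratios were -0.25, -0.08 and 0.23, against -0.54, -0.43 and -0.05 in the kept cells, and with SCTransform they were -0.25, -0.22 and -0.43, so the order did not hold there. Il10rb had ratios of 1.03 (0.955 to 1.11) and 1.02 (0.943 to 1.10) before 4 h and 1.19 (1.10 to 1.29) at 4 h.

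For Stat3 the DHA/Veh ratio was 0.832 (0.770 to 0.898) without LPS, and at 1 and 4 h the intervals, 0.937 to 1.08 and 0.873 to 1.06, both held 1. Socs1 had a ratio of 1.08 (0.866 to 1.33) at 0 h, 1.41 (1.17 to 1.71) at 1 h and 0.628 (0.491 to 0.796) at 4 h. The last is beyond 1.5-fold in size but below the share limit, and was -0.67 on the log2 scale with the total, -0.79 with TMM factors and -1.33 with SCTransform. At 1 h the log2 ratio was 0.50 in the kept cells and 0.12 with all barcodes. For Socs1 the sign at 1 and at 4 h was kept under all settings run.

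**Figure D3:**
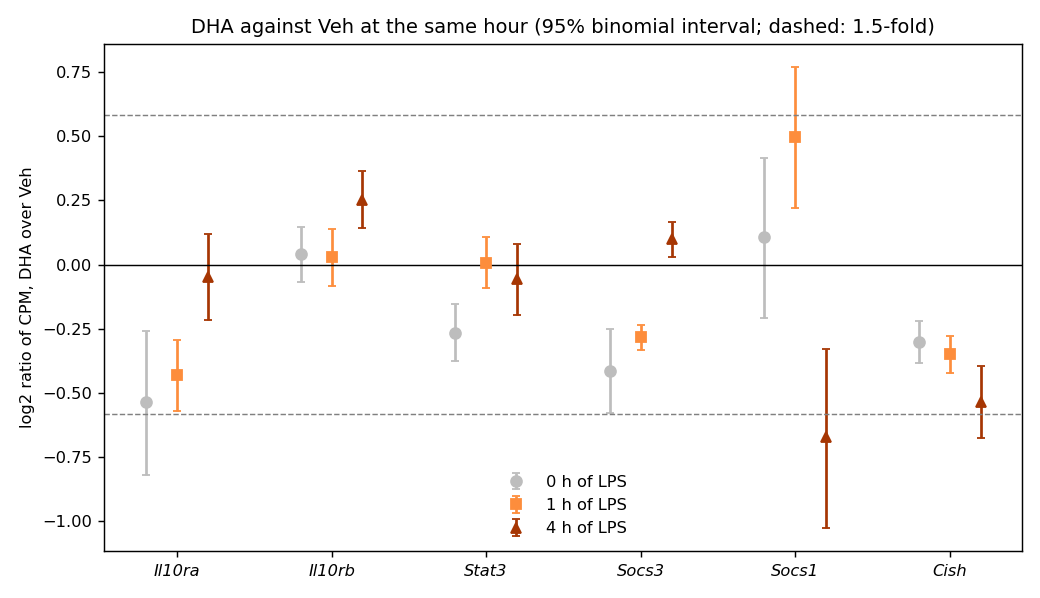
Log2 ratio of CPM in DHA over Veh at 0 h (grey circles), 1 h (orange squares) and 4 h (brown triangles) of LPS, with 95% binomial intervals; dashed lines mark 1.5-fold. Cish is below 0 at each hour, Socs3 and Il10ra are below 0 at 0 and 1 h, and Socs1 is above 0 at 1 h and below it at 4 h. The point of Socs3 at 4 h, 0.10, turned to -0.02 with TMM factors.

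The difference between the LPS ratio in DHA and that in Veh sets these values side by side, with the libraries at 0 h as the base of each. At 4 h the log2 ratio was higher in DHA than in Veh by 0.51 for Socs3 (0.34 to 0.69) and by 0.49 for Il10ra (0.17 to 0.81), and by 0.21 for both Il10rb (0.06 to 0.37) and Stat3 (0.03 to 0.38). For Socs1 it was lower, at -0.78 (-1.23 to -0.32), and for Cish it was -0.23 (-0.39 to -0.07). At 1 h the intervals held 0 for all of these members but Stat3, at 0.27 (0.13 to 0.42). The levels behind the larger ratios of Socs3 and Il10ra were lower in DHA than in Veh at 0 h, while at 4 h they were 111 against 103 CPM and 18.0 against 18.6 CPM. These differences share the libraries of the comparisons above and were not tested over replicates. At 4 h they depended on scaling. With TMM factors Socs3 had 0.38 and Il10ra 0.36, and Il10rb and Stat3 had 0.08 each. With SCTransform Socs3 had 0.20, while Il10ra, Il10rb and Stat3 turned to -0.18, -0.07 and -0.04. Socs1 and Cish stayed below 0 at 4 h in all settings run.

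How the members were spread over cells was read at equal depth. Before LPS, 76.3% of Veh cells and 82.1% of DHA cells held no Socs3 UMI. After 1 h of LPS, 21.8% of Veh cells still held none while 12.4% held 8 or more, and in DHA the shares were 32.2% and 9.18%. At 4 h, 29.3% of Veh cells and 19.8% of DHA cells held none, and 4.13% and 2.31% held 8 or more. Socs3 was thus in more of the DHA cells than of the Veh cells at 4 h and in fewer at 1 h, at means of 2.18 and 2.16 UMIs per cell at 4 h and 2.59 and 3.28 at 1 h. The variance over the mean, which is 1 for molecules spread at random over cells, was 3.63 in Veh.LPS.1, 4.50 in DHA.LPS.1, 3.62 in Veh.LPS.4 and 2.09 in DHA.LPS.4. The tenth of cells with the most Socs3 held 33.7% of its UMIs in Veh.LPS.1 and 42.0% in DHA.LPS.1.

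Cish was in 67.3% of Con cells, and in 59.1%, 68.9% and 37.5% of Veh cells as LPS went from 0 to 1 and 4 h. The DHA shares were 51.3%, 58.0% and 30.1%. Its variance over the mean was between 1.39 and 2.18. Those of Il10rb, Il10ra and Stat3 lay between 0.977 and 1.25 in each library, close to a random spread at these low counts.

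**Figure D4:**
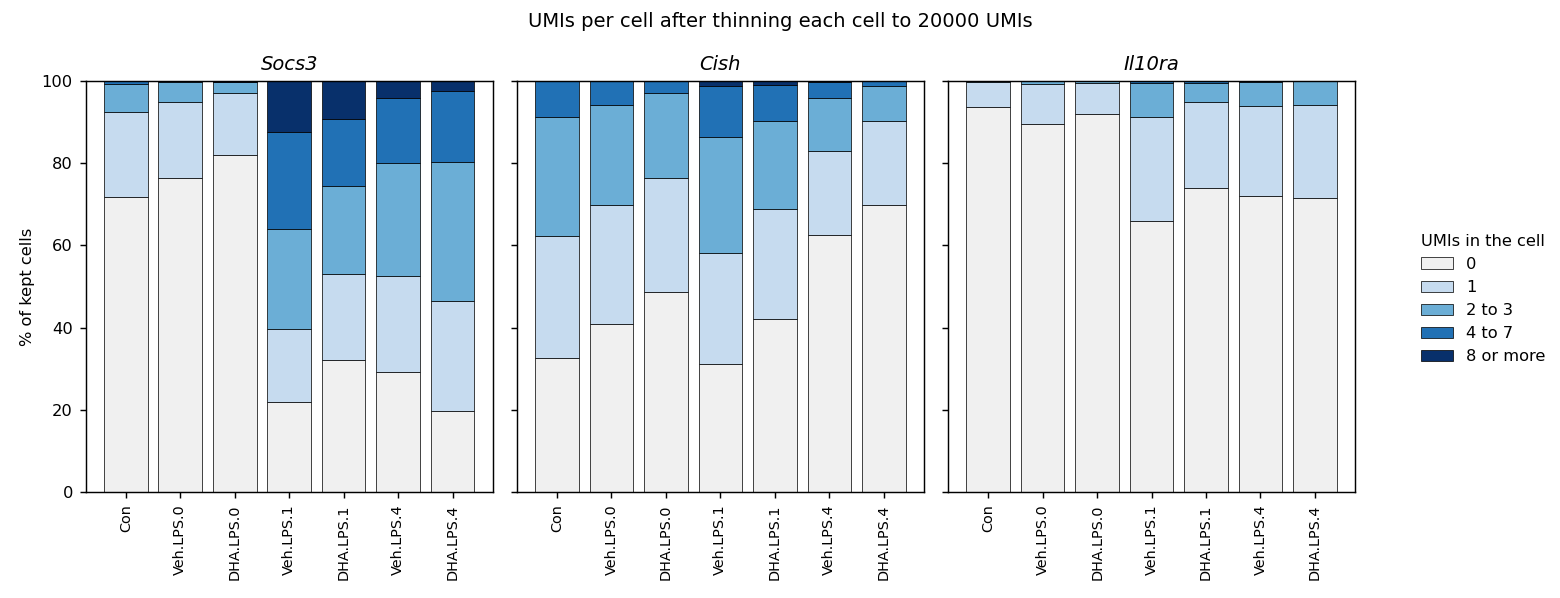
Share of kept cells by the number of UMIs of Socs3, Cish and Il10ra in the cell, after each cell was thinned to 20000 UMIs; the bars of the 7 libraries add up to 100%. Socs3 went from 76.3% of Veh cells without a UMI before LPS to 21.8% at 1 h, and Cish from 31.1% at 1 h to 62.5% at 4 h.

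After LPS, cells that held a Socs3 UMI also held more Cish and Il10ra. In Veh.LPS.1 the mean was 1.82 Cish UMIs in cells with Socs3 and 1.08 in those without, a ratio of 1.68 (1.55 to 1.82), and in DHA.LPS.1 the ratio was 1.67 (1.43 to 1.94). At 4 h it was 1.32 (1.11 to 1.58) in Veh and 1.87 (1.32 to 2.73) in DHA. Without LPS it was 1.05 (0.979 to 1.12) in Con, 1.18 (1.08 to 1.28) in Veh and 1.23 (1.01 to 1.5) in DHA, so the latter 2 also lay above 1. The same ratio for Il10ra was 1.64 (1.41 to 1.91) and 1.88 (1.39 to 2.59) at 1 h and 1.34 (1.05 to 1.74) and 1.74 (1.19 to 2.65) at 4 h. Its interval held 1 in the 3 libraries without LPS, at ratios of 1.27 in Con, 1.09 in Veh and 0.705 in DHA. For Il10rb the interval held 1 in each of the 7 libraries.

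Further genes were added to this reading after the data were seen, among them Stat2, which carries interferon signals. At 4 h the cells with a Socs1 UMI, 114 in Veh and 45 in DHA, held more Stat2, by ratios of 1.45 (1.09 to 1.90) and 2.99 (1.63 to 5.17). They also held more Il6, by 1.70 (1.40 to 2.06) and 1.85 (1.22 to 2.71). In Veh they held less Lif, with a ratio of 0.750 (0.643 to 0.869), and less Csf2, with 0.590 (0.479 to 0.721). In DHA the intervals of these 2 ratios held 1. Cells with Cish at 4 h held more Lif, by 1.99 (1.83 to 2.17) in Veh and 2.02 (1.79 to 2.27) in DHA, and less of the proliferation gene Mki67, with ratios of 0.660 (0.594 to 0.733) and 0.620 (0.555 to 0.691). These cells with Cish held more Il6 as well, by 1.34 (1.15 to 1.55) in Veh and 1.98 (1.54 to 2.54) in DHA. They also held more Csf2, by 1.58 (1.43 to 1.76) in Veh and 1.64 (1.37 to 1.97) in DHA. Osm, the gene of oncostatin M, was higher in them by 1.91 (1.64 to 2.22) and 1.74 (1.38 to 2.18). Stat2 was higher in them in DHA, by 1.83 (1.19 to 2.82), while in Veh its interval held 1. At 1 h, Il6 was on the other side, with 0.0118 UMIs per cell with Cish and 0.0513 in cells without it in Veh, a ratio of 0.230 (0.136 to 0.380), and 0.0966 (0.0481 to 0.177) in DHA, where an Il6 UMI was in 1.40% and 6.29% of all kept cells. These are descriptions of cells within single libraries, and Il10 was in too few cells to be read in this way.

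The other genes of the pathway were taken from lists. Of 13 cytokine genes, most of which signal through STAT3 or STAT5, 7 were measured at 4 h in Veh and all 7 were higher than at 0 h. All but Ebi3 passed the share limit only through the library at 4 h, where they had to be high, so the count is a description and is not set against all genes. In Veh, Lif, a gp130 ligand, went from 0.0810 CPM before LPS and 0.751 CPM after 1 h to 111 CPM after 4 h, and Csf2, which encodes GM-CSF, from 0.0709 and 0.825 to 80.9 CPM. Csf3, which encodes G-CSF, went from 2.12 and 92.9 to 1622 CPM. Oncostatin M (Osm) peaked early, with 8.28, 107 and 35.3 CPM at the hours in turn. At 1 h Osm and Csf3 were the 2 genes higher of 3 measured, where 4.15% of all genes were higher and 4.24% lower. Both passed the share limit only through Veh.LPS.1, where they had to be high, so this count too is a description. Lif, Csf2 and Il6 were also higher at 1 h than before LPS, but below the share limit, and like Csf3 were highest at 4 h.

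In DHA.LPS.4, 0 of the 7 cytokine genes were higher and 3 lower than in Veh.LPS.4, and with TMM factors 4, with Osm. Among all genes 2.22% were higher and 2.42% lower, and 1.25% and 3.42% with TMM factors. Il6 passed the share limit only through Veh.LPS.4, so the count is a description. Il6 was at 16.9 CPM with DHA against 36.6 CPM without it, a ratio of 0.461 (0.412 to 0.515). Csf2 had a ratio of 0.476 (0.442 to 0.512) and Il27 one of 0.580 (0.525 to 0.640). Lif had 83.5 CPM and Csf3 2305 CPM in DHA.LPS.4. Before that hour Il6 was higher in DHA than in Veh, at 1.88 against 0.192 CPM without LPS and 6.10 against 0.994 CPM after 1 h, and at most 6.29% of cells before thinning, 4.53% at equal depth, held it. Ifnb1, named after its values were seen, was at 3.36 CPM (2.91 to 3.87) after 4 h in Veh against 0.499 CPM (0.249 to 0.893) in DHA. Its 197 UMIs in Veh and 11 in DHA lay in few cells, 1.21% and 0.723% at equal depth.

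**Figure D5:**
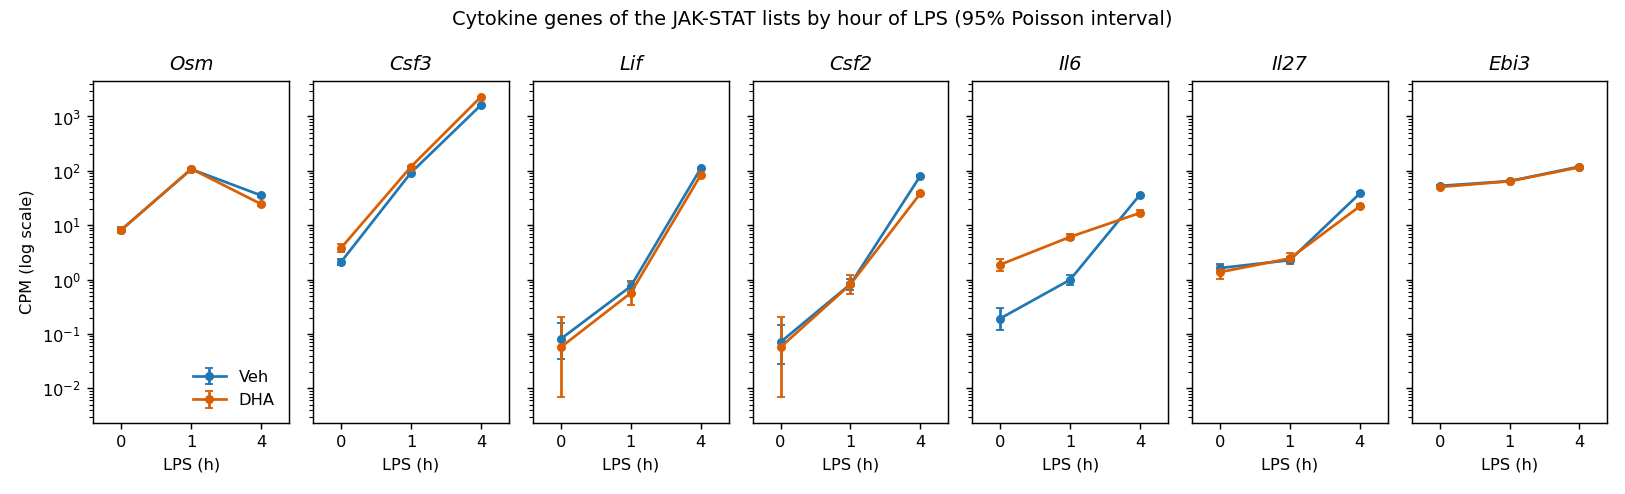
Level of 7 cytokine genes, in CPM on a log axis, at 0, 1 and 4 h of LPS in Veh (blue) and DHA (orange), with 95% Poisson intervals; the hours are drawn at even steps. Osm is highest at 1 h, the other 6 are highest at 4 h, and the curves of Il6 cross, from 0.192 CPM in Veh and 1.88 CPM in DHA at 0 h to 36.6 and 16.9 CPM at 4 h.

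Among 16 receptor and kinase genes, 11 were measured, and 0 were past the limits at 1 h in Veh or in DHA. At 4 h in Veh, 2 were higher and 5 lower, and with TMM factors 2 higher and 3 lower. With the library total 10.2% of all genes were higher and 38.3% lower at that hour, so 5 of 11 lower was near the background. With TMM factors 21.6% were higher and 21.1% lower, so 2 and 3 of 11 were near it as well. Il6ra, the IL-6 receptor chain, fell to 8.05 from 28.7 CPM, Ifngr1 to 13.0 from 35.5 CPM, and Il6st, which encodes gp130, to 14.8 from 32.4 CPM, and these 3 were lower with either scaling. Jak2 rose to 70.4 from 30.6 CPM and Csf2ra, the GM-CSF receptor's own chain, named after its values were seen, to 72.7 from 39.9 CPM. With DHA at 4 h, Csf2rb, the signalling chain for GM-CSF, was the only measured gene of the list past the limits against Veh, with 21.4 and 12.9 CPM and a ratio of 1.67 (1.48 to 1.87), and TMM factors left it so, at 0.61 on the log2 scale.

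Of the 6 other STAT genes, 5 were measured at 1 h, where Stat2 and Stat5a were lower in both Veh and DHA and 0 were higher. Among all genes 4.15% were higher and 4.24% lower in Veh, and 4.66% and 4.97% in DHA. Only 2 genes of the list passed the share limit in a library at 1 h. The others passed it only through the libraries at 0 h, so the count is a description. At 4 h Stat2 was at 19.5 CPM in Veh against 7.17 CPM in DHA. This was a DHA/Veh ratio of 0.368 (0.310 to 0.435), past the limits with either scaling, where Stat3 had 0.961. Stat2 passed the share limit there only through Veh.LPS.4, where it had to be high, so its call is a description. Among 5 other Socs genes, only Socs2 was past the limits with the library total in any comparison. It was lower from 0 to 4 h in Veh and in DHA and from 1 to 4 h in DHA. From 1 to 4 h in Veh it was below the share limit and so could not be called. Where it was called, it passed that limit only through the earlier library, where it had to be high. In these comparisons 38.3%, 33.6% and 23.3% of all genes were lower, so 1 of 5 was not above the background. Socs2 fell from 9.75 to 1.96 CPM over 4 h of LPS in Veh and from 10.6 to 2.95 CPM in DHA. TMM factors kept this fall but added 1 higher gene in each, Socs5 in Veh and Socs7 in DHA. With them 21.6% of all genes were higher and 21.1% lower in Veh, and 18.3% and 21.0% in DHA.

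Of 11 genes for PIAS proteins, phosphatases and other JAK-STAT inhibitors, 10 were measured, and 0 were past the limits at 1 h with the library total. TMM factors put 1 higher in each arm, Ptpn2 in Veh and Sh2b3 in DHA, where 5.02% and 5.92% of all genes were higher. At 4 h in Veh, 0 were higher and Ptpn6, Ptpn1 and Pias1 lower, but with TMM factors 3 were higher and only Ptpn6 lower. Among all genes 10.2% were higher and 38.3% lower with the library total, so 3 of 10 lower was not above the background. With TMM factors 21.6% of all genes were higher and 21.1% lower. Ptpn6, which encodes SHP-1, went from 200 to 94.9 CPM. In DHA, 1 was higher and 2 lower, where 9.64% of all genes were higher and 33.6% lower. With TMM factors it was 2 and 1, where 18.3% and 21.0% of genes were. Against Veh, DHA moved 0 of the 10 past the limits at any hour.

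A list of 13 genes known as targets of IL-10 or STAT3 was read after 4 h of LPS. In Veh, 9 of 12 measured genes were higher and 0 lower, and in DHA 6 of 11 were higher and 1, Nfil3, lower. Among all genes 10.2% were higher and 38.3% lower in Veh, and 9.64% and 33.6% in DHA. TMM factors gave 10 and 8 higher and 0 lower in both, where 21.6% and 18.3% of all genes were higher. Bcl3, Bcl6 and Cd274 passed the share limit in Veh only through Veh.LPS.4, where they had to be high. Bcl6 did so in DHA through DHA.LPS.4, so the counts are descriptions. Bcl3 rose from 3.37 to 7.08 CPM in Veh and from 3.31 to 9.03 CPM in DHA, where it was below the share limit. It was in 30.6% of Veh.LPS.4 and 23.4% of DHA.LPS.4 cells before thinning, and in 12.9% and 14.7% at equal depth. Il1rn, the antagonist of the IL-1 receptor, rose from 64.5 to 913 CPM in Veh and from 80.2 to 1082 CPM in DHA. Cebpd rose 6.95-fold (6.69 to 7.22) and 6.47-fold (6.02 to 6.95), and Pim1 4.19-fold (4.07 to 4.32) and 4.40-fold (4.18 to 4.62). Bcl6 was at 10.7 CPM with DHA at 4 h against 18.3 CPM in Veh, and was lower with Zfp36, which had 70.6 and 118.9 CPM, and, with TMM factors, Ddit4. Hmox1, which encodes haem oxygenase, was the gene of the list higher with DHA at 4 h, at 304 against 118 CPM, a ratio of 2.58 (2.50 to 2.67), and it was also higher at 0 and 1 h. At 1 h of LPS, 4 of 9 measured genes were higher and Nfil3 lower in Veh, where 4.15% of all genes were higher and 4.24% lower. In DHA, 5 of 10 were higher and Nfil3 and Cd274 lower, against 4.66% and 4.97%. These genes were the same with TMM factors. Cd274 passed the share limit in DHA only through DHA.LPS.0, and went from 11.6 to 4.81 CPM. In Veh it went from 6.55 to 2.80 CPM but was below that limit, at 19.8% of Veh.LPS.0 cells before thinning. LPS also reaches several of these genes without IL-10, so the list does not read IL-10 signalling alone.

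Of 8 genes that control Il10 itself, 5 were measured at 1 h in Veh and 6 in DHA. Dusp1, a phosphatase of MAP kinases, and Map3k8, a kinase upstream of ERK, were higher in both arms and 0 were lower. Among all genes 4.15% were higher and 4.24% lower in Veh, and 4.66% and 4.97% in DHA. Dusp1 passed the share limit only through the libraries at 1 h, where it had to be high, so these counts are descriptions. In Veh, Dusp1 was at 3.53, 81.8 and 13.7 CPM as the hours of LPS went from 0 to 1 and 4. With DHA it was at 4.05, 105 and 13.7 CPM. Creb1 was at 36.9, 46.2 and 21.4 CPM at these hours in Veh and at 33.0, 44.2 and 20.6 CPM in DHA. Its fall from 1 to 4 h was past the limits in both arms with the library total and with TMM factors. Map3k8 rose 1.82-fold (1.66 to 1.99) in Veh and 1.53-fold (1.32 to 1.77) in DHA at 1 h. At 4 h against 0 h, Dusp1 was higher and Creb1 and Rps6ka4 lower of 5 measured in Veh. In DHA 0 were higher and Creb1 and Rps6ka5 lower of 5. Dusp1 rose in DHA too, from 4.05 to 13.7 CPM, but was below the share limit there. In Veh it passed that limit only through Veh.LPS.4. It was in 25.6% of Veh.LPS.4 and 21.1% of DHA.LPS.4 cells before thinning, and in 14.4% and 17.2% at equal depth. Among all genes 10.2% were higher and 38.3% lower in Veh, and 9.64% and 33.6% in DHA. With TMM factors 3 were higher and 0 lower in Veh, where 21.6% and 21.1% of genes were. In DHA 1 was higher and 1 lower with them, where 18.3% and 21.0% were. Maf, a transcription factor for Il10, had 0 UMIs in all 7 libraries, and Prdm1 had 1 UMI in Veh.LPS.1, 1 in DHA.LPS.4 and 0 elsewhere. Both were named after their values were seen.

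The genes whose profile over the 7 libraries was most like that of a member were found by Pearson's r of log2(CPM + 1), among 8765 or 8766 genes, as a description over points that share cells, depth and controls. For Socs3 they were Wsb1, which encodes another protein with a SOCS box, at 0.997, Nlrp3, the inflammasome sensor, at 0.996, and Gm12840 at 0.994. For Il10ra they were Bcl10, Phlda1 and Dusp16, at 0.995, 0.992 and 0.991. Cish was most like Bag3, Mknk2 and Cited2, with r of 0.975, 0.973 and 0.973. Il10rb went with Efhd2, Dtx4 and Mtpn, from 0.989 to 0.986. The values for Stat3, with 4930471E19Rik, 5033406O09Rik and Lonrf3, were 0.941 to 0.930, and those for Socs1, with Tlr7, Polr1c and Osbpl11, were 0.949 to 0.896.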

How the data were processed

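Single-cell RNA-seq (10x 3' v3) of 7 libraries, 1 per condition, was read from the gene by barcode matrices. The values are UMI counts per gene and barcode that the authors made with Cell Ranger 3.1.0 against the mm10 genome and deposited as filtered matrices, with no normalization. Barcodes with over 20000 UMIs, at least 2000 genes and under 20% mitochondrial UMIs were kept, the limits of the study. Counts were summed per library and divided by its total. A group was taken from the label of its library. Intervals are 95%, exact Poisson for CPM and exact binomial for shares and ratios. A count of 0 was read as up to 3 counts. Differences of 2 log2 ratios have normal intervals from the 4 counts. Cells were thinned to 20000 UMIs without replacement. The script that computes ratios and calls was checked on simulated counts. Each symbol occurs once among the members' rows, and positions are those of RefSeq for GRCm38.p6, matched by symbol for all 7 genes.

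The genes and lists were chosen with earlier results of these data known. From each list, up to 4 genes past the limits in a comparison are named, those with the largest log2 ratio either way, and others are said to be named after their values were seen. A gene of the STAT list is not reported here. Alternatives were TMM factors (edgeR 4.0.16), median-of-ratios size factors (DESeq2 1.42.0, without its test) and SCTransform (Seurat 5.3.0, sctransform 0.4.2), in R 4.3.3, and other limits on cells and calls. Python 3.11.15, numpy 2.4.6, scipy 1.17.1 and pandas 2.3.3 did the rest. Doublets were not called; the tenth of cells with the most UMIs was left out as an alternative, and so were the 0 to 10 kept barcodes per library also found in another.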

Additional observations from a re-analysis of the deposited data

Results flagged for a closer look

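Among the members, 2 changed side between hours in the comparison of DHA with Veh. The log2 ratio of Socs1 was 0.50 at 1 h and -0.67 at 4 h, and both intervals of counting error left out 0. With all barcodes the value at 1 h was 0.12. That of Socs3 was -0.41 at 0 h, -0.28 at 1 h and 0.10 at 4 h, and the last became -0.02 with TMM factors. With 1 library per condition the difference between hours was not tested in either gene. The kept cells of the DHA libraries were 12.1% to 18.5% of their barcodes, and the level of 8 proliferation genes at 4 h was 994 CPM in DHA and 718 CPM in Veh. The part of either in these values was not tested.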

How the results depend on the processing

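Of 660 log2 ratios of members recomputed under alternatives, 523 stayed within the counting interval of the reported ratio and 137 did not, and 0 past the limits changed sign. Among 133 recomputed counts of members past the limits, 113 stayed within 1.5 times the reported count. The other 20 were these. For Veh.LPS.0 over Con, 0 became 1 in cells low in proliferation genes (Socs3, lower) and 2 with no limit on the share of cells (Il10ra, higher, and Socs1, lower). From 1 to 4 h in Veh, 2 became 4 with no share limit and 1 with a 2-fold limit. For DHA.LPS.1 over DHA.LPS.0, 2 became 1 with all barcodes and 1 with a share limit of 50%. For DHA.LPS.4 over DHA.LPS.0, 4 became 2 with a 2-fold limit, and over DHA.LPS.1, 2 became 1 with all barcodes, in cells low in proliferation genes and with a 2-fold limit. Between DHA and Veh at 1 h, 0 became 2 with all barcodes (Socs3 and Cish, lower). At 4 h, 0 became 1 by Cish, lower, with TMM factors, size factors, SCTransform, all barcodes and without the tenth of cells with the most UMIs. It became 1 by Socs1, lower, under 10% mitochondrial UMIs, in cells low in proliferation genes, without shared barcodes and with no share limit. Counts that stayed close could still lose a member. Within the 1.5-fold limit fell Cish in Veh.LPS.1 over Veh.LPS.0 (log2 0.50 to 0.57 in 5 settings), Cish at 4 h over 0 h in Veh (-0.23 with TMM factors, -0.21 with size factors) and in DHA (-0.55 with size factors), Socs3 from 1 to 4 h in Veh (-0.32 to -0.40 with the 3 scalings), and Il10rb at 4 h in DHA over 0 h (0.46 and 0.47) and over 1 h (0.53 and 0.56). The causes were not tested. No paired analysis was possible because each group holds 1 library. Depth limits Il10 most, at 50 UMIs in all.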
